A study of Mus musculus with 18 samples.

Results

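The mouse mitochondrial chromosome carries 37 annotated genes, and their transcripts are described here across 3 tissues, skeletal muscle, white fat and brown fat, and by treatment with quercetin or its vehicle. The members were all genes whose mouse symbol starts with mt-, after the Ensembl identifiers of the count files were matched to the GENCODE annotation of GRCm38. They were 37 of 53465 genes in the files: 13 protein-coding genes, 2 ribosomal RNA genes and 22 transfer RNA genes. RNA from tissue of wild-type C57BL/6J mice was sequenced in 18 libraries, 3 for each tissue and treatment, in a study of the plant flavonol quercetin at a low dose over a long time. The treated group was gavaged with quercetin at 0.125 mg/kg, dissolved in 100 µL PBS that held 10% PEG400, and the vehicle group received the solvent alone. The sources used here do not give the age, sex or length of treatment of the sequenced animals, nor the depot of the white fat. For the lifespan experiment alone, the labels name male mice aged 14 months at the start.

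Mitochondria keep a small circular genome whose products are all used inside the organelle. Its mRNAs encode core subunits of respiratory complexes I, III and IV and of ATP synthase, which are assembled with many subunits encoded in the nucleus, and its rRNAs and tRNAs serve the mitochondrial ribosome. Both strands are transcribed as long precursors by the polymerase Polrmt, with the packaging factor Tfam, and are then cut into single RNAs, often at the tRNAs that lie between them. Brown fat burns fuel for heat and skeletal muscle for contraction, and both are known for many more mitochondria per cell than white fat, which stores lipid.

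The genes lie tightly packed on chrM, and 9 neighbouring pairs overlap. The longest overlap joins both ATP synthase genes, mt-Atp8 (chrM:7766-7969) and mt-Atp6 (chrM:7927-8607), over 43 bases. The sequence of mt-Atp8 is shown for that reason, plus strand, with the bases shared with mt-Atp6 in capitals; a read that lies on the shared bases fits both genes.
mt-Atp8: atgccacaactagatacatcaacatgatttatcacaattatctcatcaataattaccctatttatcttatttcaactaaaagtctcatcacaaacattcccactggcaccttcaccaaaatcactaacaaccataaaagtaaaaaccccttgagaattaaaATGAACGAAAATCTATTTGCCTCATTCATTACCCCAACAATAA

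Of the 13 protein-coding genes, 12 lie on the plus strand and mt-Nd6 (chrM:13552-14070) lies on the minus strand, with 14 bases opposite the end of mt-Nd5. The annotated sequence of 3 mRNAs, mt-Co3, mt-Nd4 and mt-Cytb, ends in a single T in place of a complete stop codon, and the other 10 end in TAA or TAG. In mammals such stops are known to be completed by the poly(A) tail. Whether the count step used strand is not given in the sources used here, so reads from a gene and from RNA of the opposite strand cannot be told apart.

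A second feature of the sequence concerns 6 mRNAs. A block of 4663 bases on chromosome 1 (chr1:24611535-24616197, minus strand) holds 7 annotated pseudogenes that copy the mitochondrial genes from the end of mt-Co1 to the first part of mt-Nd4. Over the 4140 aligned bases of these pseudogenes only 2 bases differed from the mitochondrial genes, an identity of 99.7 to 100% per gene, and the gaps between neighbours matched those on chrM within 1 base. The copies cover 99.6% of mt-Co2, 99.6% of mt-Atp6, 99.9% of mt-Co3, 99.1% of mt-Nd3 and 99.0% of mt-Nd4l, but 63.6% of mt-Nd4 and 31.3% of mt-Co1. mt-Atp8 has no annotated copy, but lies in the gap between mt-Co2 and mt-Atp6, which is 233 bases on both chromosomes. These 6 mRNAs from mt-Co2 to mt-Nd4l are called the copied genes below. The 7 other mRNAs are described as outside the copied stretch, although mt-Nd4 and mt-Co1 lie partly in it. Both places where a copy differs are shown with the differing base in capitals, 5′ to 3′ in the direction of the gene.
mt-Nd3: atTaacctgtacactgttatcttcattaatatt
Gm28438: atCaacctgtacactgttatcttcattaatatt
mt-Co1: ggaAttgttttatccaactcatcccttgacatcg
Gm29216: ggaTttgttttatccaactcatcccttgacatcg
The mt-Nd3 stretch is chrM:9459-9491 and its copy chr1:24613087-24613119, and the mt-Co1 stretch is chrM:6390-6423 and its copy chr1:24616155-24616188. Counted from the 5′ end of the mitochondrial gene, the changes from gene to copy are T3C in mt-Nd3 and A1066T in mt-Co1. A stretch of 100 bases of mt-Co2, mt-Atp6, mt-Co3, mt-Nd3 or mt-Nd4l had an exact copy in an annotated nuclear gene at 97.6 to 99.9% of its possible positions. For mt-Nd1, mt-Nd5, mt-Nd6, mt-Cytb, mt-Rnr1 and mt-Rnr2 the same share was 0, for mt-Nd2 it was 3.19%, for mt-Co1 30.8% and for mt-Nd4 60.8%. The files list 0 reads as aligned to more than 1 place in all 18 libraries. Whether such reads were removed or left unmarked before counting is not given in the sources used here. The levels of the copied genes and of their copies may therefore leave out reads.

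The libraries held 8436308 to 12311345 counts over genes. Levels are given in CPM, the count of a gene normalised to the size of its library, with TMM factors of all 18 libraries. The labels were checked against markers fixed for each tissue: 6 muscle fibre genes summed to 60067 to 109851 CPM in muscle. In brown fat, 5 brown fat genes including Ucp1 summed to 1655 CPM in quercetin 3 and to 7425 to 9092 CPM in the remaining libraries. In white fat they summed to 2.76 to 84.4 CPM. Several libraries held transcripts of other tissues. The muscle genes summed to 26860 CPM in brown fat quercetin 3 and to 5.06 to 4167 CPM in the remaining brown fat libraries. In white fat they summed to 915 CPM in vehicle 2 and to 15.7 to 86.4 CPM in the remaining libraries. Muscle quercetin 2 had 529 CPM of the brown fat genes and 25038 CPM of 3 seminal vesicle genes. In muscle, 5 adipocyte genes summed to 455 to 5358 CPM, highest in vehicle 3. White fat vehicle 2 had 489 CPM of the adipocyte genes, where the remaining white fat libraries had 4343 to 33984 CPM, and 6 lymphocyte genes ranged from 1.53 to 2562 CPM in white fat, with 2562 CPM in quercetin 1 and 2192 CPM in vehicle 2. In such bulk tissue, fewer cells of a type and less RNA per cell cannot be told apart.

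Mitochondrially encoded genes took the largest share of counts in brown fat, less in muscle and least in white fat. In muscle the share was 7.09%, 12.1% and 9.06% with vehicle and 7.92%, 9.88% and 11.7% with quercetin. In white fat it was 4.27%, 1.92% and 4.12% with vehicle and 3.45%, 3.71% and 4.09% with quercetin. In brown fat it was 15.6%, 18.4% and 16.2% with vehicle and 14.2%, 16.8% and 11.4% with quercetin. All libraries of muscle and of brown fat lay above all libraries of white fat, while brown fat quercetin 3 lay among the muscle libraries, the brown fat library with the muscle genes. Over 6 libraries the mean share was 15.4% ± 2.41 (SD, n = 6) in brown fat, 9.63% ± 2.02 (SD, n = 6) in muscle and 3.59% ± 0.872 (SD, n = 6) in white fat, a ratio of 4.29 between brown and white fat and of 2.68 between muscle and white fat.

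**Figure D1:**
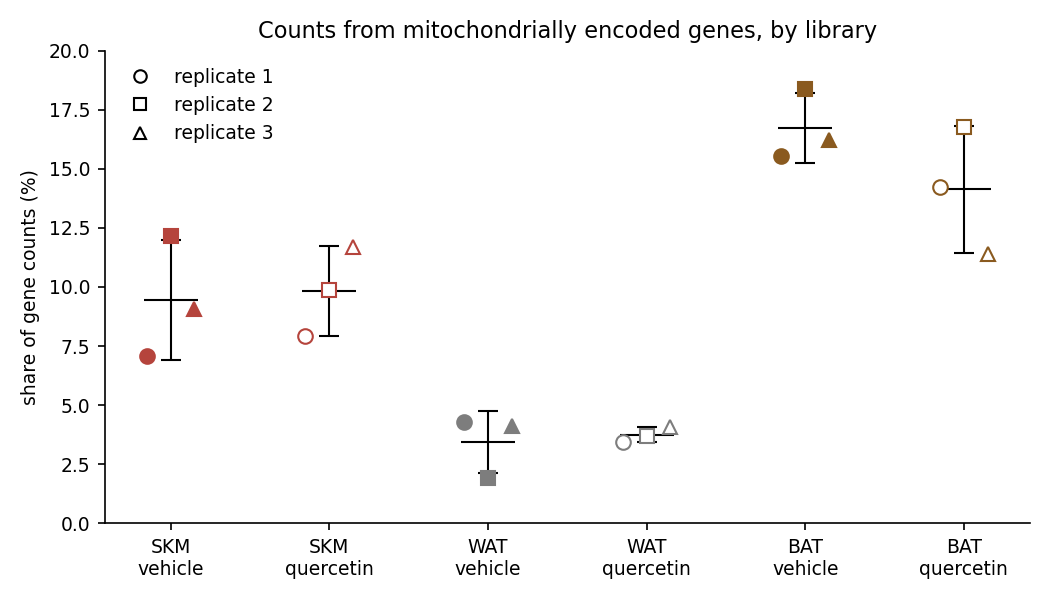
Share of each library's gene counts that falls on the 37 mitochondrially encoded genes (y axis, percent), by tissue and treatment (SKM skeletal muscle, WAT white fat, BAT brown fat); filled symbols are vehicle, open symbols quercetin, the symbol shape is the replicate number, and bars are mean and SD of 3 libraries. White fat lies between 1.92 and 4.27% and every other library above 7%.

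Quercetin and vehicle overlapped in this share in every tissue. The group means were 9.43% ± 2.55 (SD, n = 3) with vehicle and 9.83% ± 1.89 (SD, n = 3) with quercetin in muscle, and 3.44% ± 1.31 (SD, n = 3) and 3.75% ± 0.320 (SD, n = 3) in white fat. In brown fat they were 16.7% ± 1.47 (SD, n = 3) with vehicle and 14.1% ± 2.69 (SD, n = 3) with quercetin, of which the lowest value was that of quercetin 3. Each difference was smaller than the larger of the SDs of its groups. The share got no test, since it is a sum over genes chosen for their place in the genome.

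Of the 37 genes, 16 passed the filter on low counts in each test: all 13 mRNAs, both rRNAs and mt-Tp, the tRNA for proline. The other 21 are tRNA genes, of which 15 had 0 counts in all 18 libraries. A count of 0 allows a level of up to 3 counts, or 0.244 to 0.356 CPM depending on the library, and covers counting error only. The remaining 6 had 70 counts together over all libraries, 59 of them on mt-Ts1, a tRNA for serine.

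mt-Tp took 99.4% of all tRNA counts. It is a gene of 67 bases on the minus strand (chrM:15356-15422), beside the control region, and its sequence is shown because it alone of the tRNAs passed the filter.
mt-Tp: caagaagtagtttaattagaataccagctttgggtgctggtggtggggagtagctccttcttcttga
The level of mt-Tp was 17.2 to 156 CPM in muscle, 14.4 to 70.0 CPM in white fat and 51.1 to 190 CPM in brown fat, and the 3 ranges overlapped. The highest libraries were brown fat quercetin 1 with 190 CPM, muscle quercetin 3 with 156 CPM and brown fat quercetin 3 with 149 CPM. By edgeR's quasi-likelihood test with Benjamini-Hochberg adjustment it missed the threshold of 0.05 in each tissue comparison, with log2 fold changes of 1.03 ± 0.48 (SE) for brown minus white fat (adjusted p = 0.0993), 0.96 ± 0.48 for brown fat minus muscle (adjusted p = 0.159) and 0.08 ± 0.48 for muscle minus white fat (adjusted p = 0.903). With the 15 libraries of 1 flow cell it passed for brown minus white fat (1.36, adjusted p = 0.0196) and for brown fat minus muscle (1.59, adjusted p = 0.0128), and the last also passed without muscle quercetin 3 (1.58, adjusted p = 0.0193). The estimate for muscle minus white fat changed sign in 4 settings and without single libraries.

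The tissues were compared with all 18 libraries in one fit, both treatments weighing equally. Each brown or white fat or muscle mean then rests on 6 libraries. The labels do not say which libraries come from separate animals, so a p-value here speaks only of the spread among them. Between brown and white fat 9 of 16 members passed, all 9 higher in brown fat, where 18.3% of all 16388 genes tested were called higher. Between muscle and white fat the same 9 passed, all higher in muscle, where 21.7% of all genes were called higher. They were the 7 mRNAs that are not copied genes and both rRNAs. The libraries of brown and white fat did not overlap for 8 of these 9, where 8.19% of all genes were separated and higher, and those of muscle and white fat for 9 of 9, where the share was 14.3%. None of the 6 copied genes passed in any tissue comparison with all libraries. Without white fat vehicle 3, mt-Atp6 passed for brown minus white fat (1.87, edgeR adjusted p = 0.0377), and mt-Co3 (1.96, adjusted p = 0.047) and mt-Nd3 (2.19, adjusted p = 0.0338) for muscle minus white fat. With the libraries of 1 flow cell, mt-Atp8 passed for brown minus white fat (1.68, edgeR adjusted p = 0.0335). The median log2 fold change of the 16 members was 2.36 for brown minus white fat and 1.89 for muscle minus white fat, against -0.13 and -0.24 over all genes tested.

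The scaling matters for these comparisons. With library totals in place of TMM factors the median of all genes moved from -0.13 to -0.72 for brown minus white fat and from -0.24 to -0.85 for muscle minus white fat, and the share of higher genes among those called from 45.3% to 19.4% and from 43.2% to 20.997%. The same number of members, 9, passed in both comparisons under that scaling, all higher. Since the members themselves take a large share of counts, normalisation without them was also tried and gave 9 and 9.

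Complex I, which takes electrons from NADH, has 7 mitochondrially encoded subunits. mt-Nd1 (chrM:2751-3707) lies next to the rRNA genes and encodes a membrane subunit near the quinone site. Its level in muscle was 11479.8, 23311 and 12038 CPM with vehicle and 12654, 15582 and 21308 CPM with quercetin. In white fat it was 4983, 1906 and 3065 CPM with vehicle and 2969, 2536 and 3645 CPM with quercetin, and in brown fat 21711, 26947 and 21068 CPM with vehicle and 23916, 19657 and 18485 CPM with quercetin. White fat lay below every library of the other tissues, and brown fat overlapped with muscle. The log2 fold change was 2.79 ± 0.44 (SE) for brown minus white fat (edgeR adjusted p = 0.000315) and 2.34 ± 0.44 for muscle minus white fat (edgeR adjusted p = 0.000544).

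mt-Nd2 (chrM:3914-4951), a membrane subunit of the proton-pumping arm, had 7948 to 13940 CPM in muscle, 865 to 2279 CPM in white fat and 9583 to 18607 CPM in brown fat. White fat again did not overlap with the other tissues. Its log2 fold change of 3.23 ± 0.41 (SE) between brown and white fat was the largest of the 13 mRNAs. mt-Nd4 (chrM:10167-11544), another pumping subunit, had 7103 to 12723 CPM in muscle, 1008 to 3179 CPM in white fat and 11969 to 20576 CPM in brown fat. It differed by 2.84 ± 0.42 between brown and white fat and by 2.05 ± 0.41 between muscle and white fat.

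mt-Nd5 (chrM:11742-13565), the largest of these subunits, was the most uneven of the 13 mRNAs within brown fat, 5.89-fold between the highest and the lowest library. Its levels there were 19193, 9947 and 8686 CPM with vehicle and 6404, 11663 and 3258 CPM with quercetin. The white fat levels were 3498, 585 and 1914 CPM with vehicle and 1053, 1676 and 1531 CPM with quercetin, and those in muscle ran from 6550 to 9733 CPM. Brown fat quercetin 3 thus lay below white fat vehicle 1, and mt-Nd5 was the only one of the 9 genes whose brown and white fat libraries overlapped. The difference passed all the same, at 2.49 ± 0.49 (SE, edgeR adjusted p = 0.00121). In muscle mt-Nd5 varied least of the 16 members, 1.49-fold between the highest and the lowest library.

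mt-Nd6, the one mRNA made from the other strand, had 893 to 1716 CPM in muscle, 117 to 866 CPM in white fat and 1179 to 2481 CPM in brown fat. Its differences were the smallest of the 7 mRNAs in both comparisons with white fat, 2.25 ± 0.41 (SE) for brown fat and 1.89 ± 0.40 for muscle. White fat vehicle 1 had 866 CPM and the other 5 white fat libraries had 117 to 357 CPM. The level of mt-Nd5 per kb was 0.787 to 2.38 times that of mt-Nd6 over the 18 libraries.

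In complex III the only mitochondrially encoded subunit is cytochrome b, from mt-Cytb (chrM:14145-15288). In muscle it had 18172, 25991 and 15397 CPM with vehicle and 13530, 17339 and 24993 CPM with quercetin. In white fat it had 9415, 2277 and 4302 CPM with vehicle and 4536, 4517 and 6051 CPM with quercetin, and in brown fat 32322, 44021 and 40068 CPM with vehicle and 42882, 35825 and 25848 CPM with quercetin. White fat lay below both other tissues, and 5 of 6 brown fat libraries lay above all muscle libraries. The log2 fold change was 2.83 ± 0.50 (SE) for brown minus white fat (edgeR adjusted p = 0.000685), 1.89 ± 0.49 for muscle minus white fat (adjusted p = 0.00493) and 0.94 ± 0.47 for brown fat minus muscle (adjusted p = 0.163).

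Among mitochondrial mRNA counts alone, mt-Cytb made up 20.03 to 23.6% in brown fat and 16.2 to 19.4% in muscle, which did not overlap, and 15.2 to 23.8% in white fat. mt-Nd2 made up 4.09 to 8.03% in white fat and 8.67 to 9.78% in muscle, which did not overlap either. Such shares were not tested, and those of genes in one library are not independent of each other.

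The catalytic core of complex IV, cytochrome c oxidase, consists of mt-Co1, mt-Co2 and mt-Co3. mt-Co1 (chrM:5328-6872) had the highest level per length of all members in each tissue, with a mean of 39236 CPM per kb in brown fat, 27974 in muscle and 7016 in white fat. Its level in muscle was 33359, 57569 and 35299 CPM with vehicle and 34292, 39905 and 58896 CPM with quercetin. In white fat it was 15773, 6287 and 11349 CPM with vehicle and 10310, 9509 and 11811 CPM with quercetin, and in brown fat 45443, 71748 and 65222 CPM with vehicle and 70813, 74643 and 35851 CPM with quercetin. White fat lay below both other tissues, and brown fat quercetin 3 and vehicle 1 lay within the muscle range. It differed by 2.48 ± 0.54 (SE) between brown and white fat (edgeR adjusted p = 0.00243) and by 1.995 ± 0.53 between muscle and white fat (edgeR adjusted p = 0.00599). On its own it made up 36.2% ± 4.40 (SD, n = 6) of the mitochondrial mRNA counts in brown fat, 39.3% ± 2.15 (SD, n = 6) in muscle and 41.0% ± 4.18 (SD, n = 6) in white fat.

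**Figure D2:**
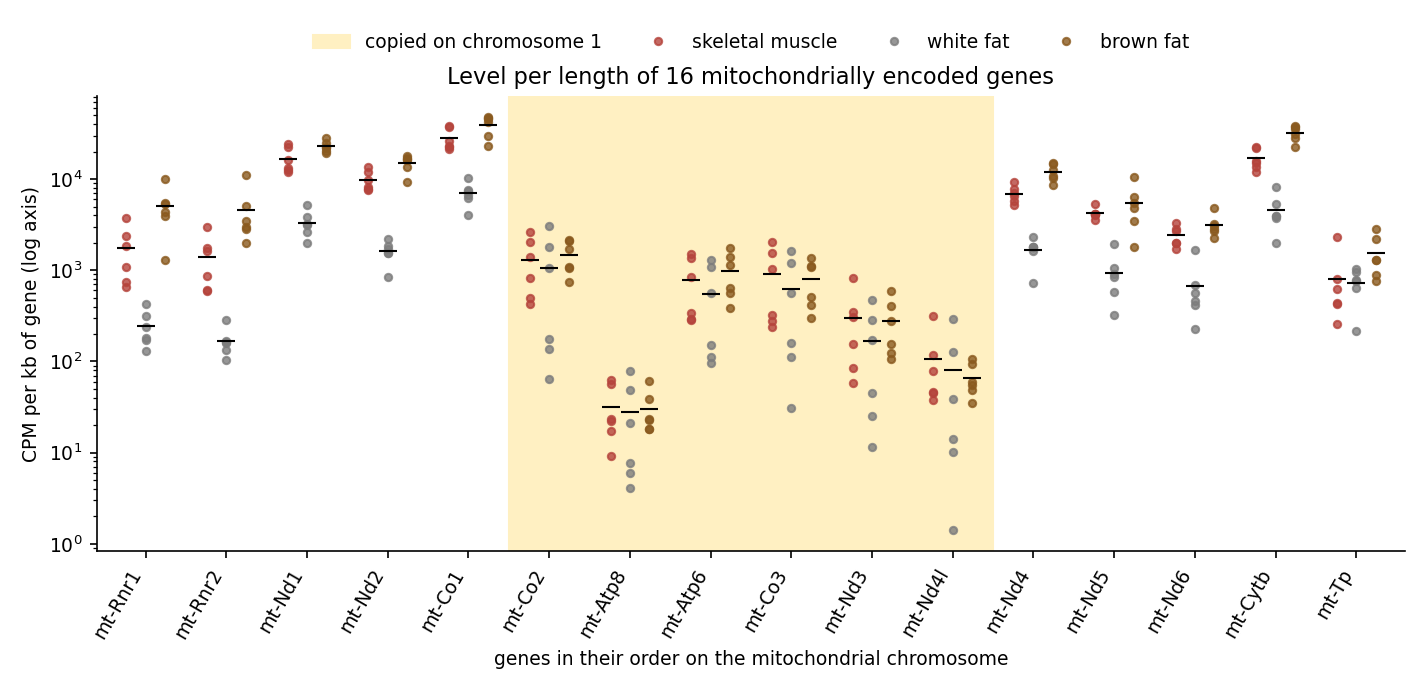
Level of the 16 genes that passed the filter, in CPM per kb of gene (y axis, log scale), in their order on the mitochondrial chromosome; points are the 6 libraries of each tissue, black bars their mean, and shading marks the copied genes. Outside the shading, white fat lies lowest in every mRNA and rRNA by its mean, while inside it the tissues overlap.

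mt-Co2 (chrM:7013-7696) encodes the subunit that receives electrons from cytochrome c, and mt-Co3 (chrM:8607-9390) the remaining core subunit. Unlike mt-Co1, both are copied genes. mt-Co2 had 1406, 965 and 337 CPM with vehicle and 294, 1793 and 557 CPM with quercetin in muscle. It had 120, 43.8 and 1228 CPM with vehicle and 722, 2090.5 and 93.5 CPM with quercetin in white fat, and 505, 1470.2 and 735 CPM with vehicle and 727, 1175 and 1416 CPM with quercetin in brown fat. The highest single library was one of white fat, the tissue in which mt-Co1 was lowest, and the levels in white fat spanned 47.7-fold. Per kb, mt-Co1 exceeded mt-Co2 by 2.01 to 63.5 times over the 18 libraries. The log2 fold change of mt-Co2 was 0.58 ± 0.78 (SE) for brown minus white fat (edgeR adjusted p = 0.587) and 0.41 ± 0.78 for muscle minus white fat (edgeR adjusted p = 0.68).

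mt-Co3 was high in the same libraries as mt-Co2. It had 1208, 805 and 219 CPM with vehicle and 187, 1581 and 255 CPM with quercetin in muscle, and 88.2, 24.0 and 942 CPM with vehicle and 438, 1281 and 123 CPM with quercetin in white fat. In brown fat it had 238, 845 and 329 CPM with vehicle and 399, 882 and 1080 CPM with quercetin. As for mt-Co2, muscle vehicle 1 and quercetin 2, and white fat vehicle 3 and quercetin 2, were the 2 highest libraries of their tissue.

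ATP synthase has 2 mitochondrially encoded subunits, and both genes are copied genes. mt-Atp6, the subunit of the proton channel, had 196 to 1035 CPM in muscle, 65.9 to 888 CPM in white fat and 260.5 to 1196 CPM in brown fat, and all 3 tissues overlapped. mt-Atp8, a small membrane subunit, had the lowest level per length of the 15 mRNAs and rRNAs in each tissue, with 1.88 to 12.8 CPM in muscle, 0.835 to 16.2 CPM in white fat and 3.66 to 12.3 CPM in brown fat. The remaining copied genes encode small complex I subunits. mt-Nd3 had 19.96 to 286 CPM in muscle, 4.006 to 164 CPM in white fat and 37.1 to 204 CPM in brown fat. mt-Nd4l (chrM:9877-10173) had 11.2 to 94.0 CPM, 0.417 to 86.1 CPM and 10.46 to 31.5 CPM in the same order.

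Single libraries set the highest values of the 6 copied genes. White fat quercetin 2 was the highest white fat library for all 6, and white fat vehicle 3 was among the 2 highest for 5 of 6. For the 7 other mRNAs, white fat vehicle 1 was the highest for 6 of 7. In muscle, quercetin 2 was among the 2 highest libraries for 6 of 6 copied genes and for 0 of 7 other mRNAs. Muscle quercetin 3 was the highest muscle library for 4 of 7 other mRNAs. It shared a second flow cell with white fat vehicle 1 and white fat quercetin 2 only. White fat vehicle 3 and muscle quercetin 2 were on the main flow cell. Whether the flow cell matters for these high values was not tested. Together the copied genes made up 0.701 to 3.49% of the mitochondrial mRNA counts in brown fat, 0.764 to 4.46% in muscle and 0.746 to 16.5% in white fat. In the comparisons of tissues their adjusted p-values ran from 0.363 to 0.916 for brown minus white fat and from 0.376 to 0.9 for muscle minus white fat (edgeR), with log2 fold changes of -0.13 to 0.83 and 0.12 to 0.90. Their standard errors, 0.685 to 0.86 for brown minus white fat, exceeded those of the 7 other mRNAs, which were 0.41 to 0.54.

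**Figure D3:**
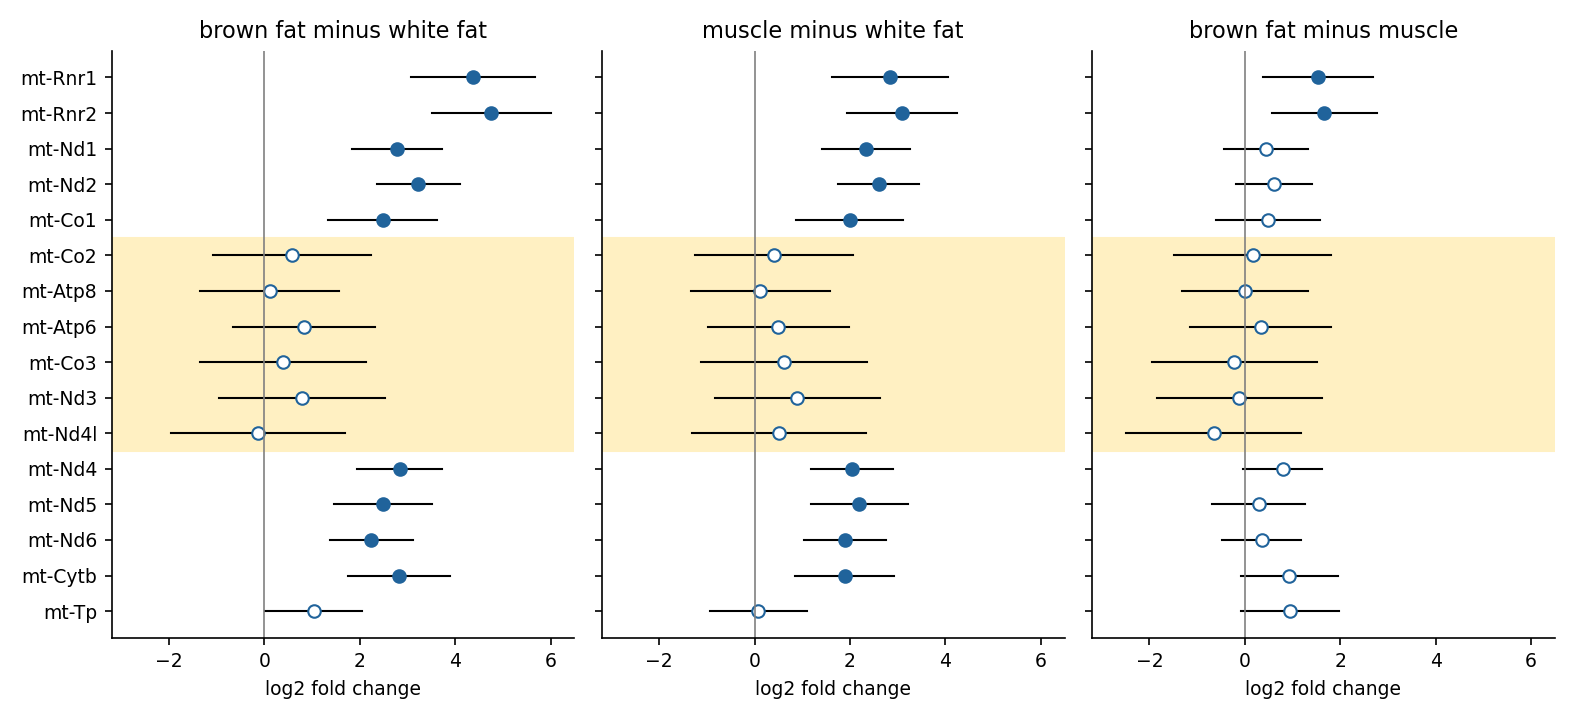
Log2 fold change (x axis) of the 16 genes between tissues, with 95% intervals derived from edgeR's F test. Filled points passed an adjusted p of 0.05 over all genes, and shading marks the copied genes. The 9 genes outside the shading other than mt-Tp passed in both comparisons with white fat, and the rRNAs alone in brown fat minus muscle.

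Counts were also assigned to the chromosome 1 copies, and brown fat and muscle overlapped in each copy given here. Gm28661, the copy of mt-Co2, had 254 to 464 CPM in brown fat, 106 to 317 CPM in muscle and 22.9 to 90.6 CPM in white fat. Gm10925, the copy of mt-Atp6, had 241 to 453 CPM, 102 to 271 CPM and 23.8 to 57.7 CPM in that order, and Gm28437, the copy of mt-Co3, had 114 to 482 CPM, 81.1 to 281 CPM and 18.8 to 29.5 CPM. Each was lowest in white fat with no overlap with the other tissues, while the libraries of mt-Co2 and mt-Atp6 overlapped across the 3 tissues. The ratio of mt-Co2 to its copy ranged from 1.03 in white fat quercetin 3 to 70.6 in white fat quercetin 2. With the counts of the copies added to the members, 9, 9 and 2 members passed in the 3 tissue comparisons as before, and mt-Co2 differed by 0.94 between brown and white fat (edgeR adjusted p = 0.286); this setting was chosen after seeing the data. Adding the copies cannot restore reads that were removed before counting. Whether reads of these 6 genes were lost or placed on the copies in the alignment was not tested.

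**Figure D4:**
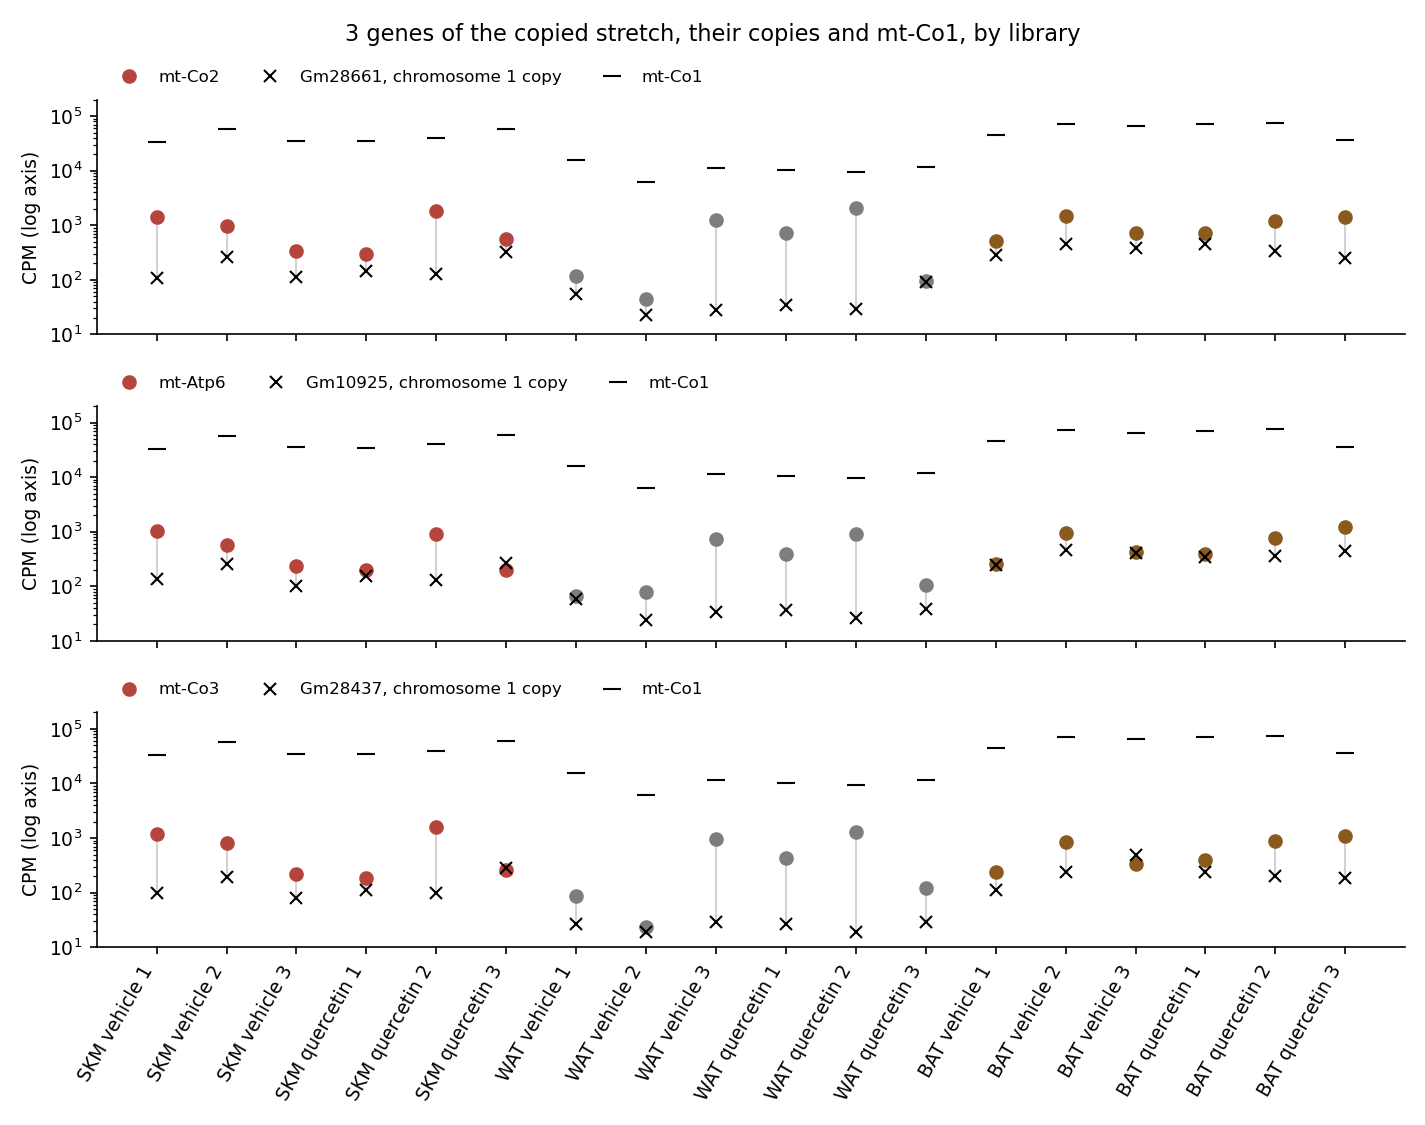
CPM (log axis) per library of mt-Co2, mt-Atp6 and mt-Co3 (coloured circles), of their copies on chromosome 1 (crosses) and of mt-Co1 (dashes). The copies and mt-Co1 are lowest in white fat, whereas the highest mt-Co2 value, 2090.5 CPM, is from a white fat library.

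The 2 rRNAs of the mitochondrial ribosome showed the widest differences between tissues. mt-Rnr1 (chrM:70-1024), the small subunit rRNA, had 1032, 3611 and 626 CPM with vehicle and 701, 2252 and 1763 CPM with quercetin in muscle. In white fat it had 123, 410 and 227 CPM with vehicle and 304, 171 and 162 CPM with quercetin, and in brown fat 1252, 9484 and 5055 CPM with vehicle and 3783, 5227 and 4206 CPM with quercetin. mt-Rnr2 (chrM:1094-2675), the large subunit rRNA, had 945 to 4733 CPM in muscle, 163 to 455 CPM in white fat and 3161 to 17513 CPM in brown fat. White fat lay below both other tissues for both genes. White fat vehicle 2, the lowest white fat library for each of the 7 mRNAs that are not copied genes, was the highest for both rRNAs.

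The rRNAs were higher in brown than in white fat by 4.37 ± 0.61 (SE, mt-Rnr1, edgeR adjusted p = 0.000122) and 4.76 ± 0.59 (mt-Rnr2, edgeR adjusted p = 4.51e-05) on the log2 scale, and in muscle than in white fat by 2.84 ± 0.57 and 3.09 ± 0.54. They were the only members that passed between brown fat and muscle, 2 of 16, where 13.9% of all genes tested were called higher in brown fat. The log2 fold changes were 1.53 ± 0.55 for mt-Rnr1 (edgeR adjusted p = 0.0481) and 1.67 ± 0.52 for mt-Rnr2 (edgeR adjusted p = 0.0253), and the libraries overlapped for both. This call rests on single libraries. Neither passed without muscle vehicle 1, muscle vehicle 3, muscle quercetin 1, brown fat vehicle 2 or brown fat quercetin 2, and without brown fat vehicle 2, the highest library, the values were 1.17 and 1.16. mt-Rnr1 alone also missed the threshold without muscle quercetin 2 or 3, or without brown fat vehicle 3, quercetin 1 or quercetin 3, with adjusted p-values of 0.0566 to 0.0834 in edgeR. The 7 mRNAs outside the copied stretch had estimates of 0.29 to 0.94 for brown fat minus muscle, none past the threshold.

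Per length, mt-Cytb exceeded mt-Rnr2 by 3.48 to 14.1 times in brown fat, 7.59 to 22.1 times in muscle and 6.92 to 51.8 times in white fat. The rRNAs held 2.83 to 12.1% of the mitochondrial counts in brown fat, 1.77 to 5.49% in muscle and 0.935 to 6.15% in white fat. How rRNA was removed or mRNA selected before the libraries were made is not given in the sources used here, so the level of an rRNA relative to an mRNA is not that in the cell.

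The order of the levels per length was alike in the tissues at its top. mt-Co1 came first, mt-Cytb next and mt-Nd1 after it in all 3, with tissue means of mt-Cytb of 32192 CPM per kb in brown fat, 16816 in muscle and 4531 in white fat. In muscle mt-Nd1 had 16784 CPM per kb, and the difference was below the SDs of 4471 (mt-Cytb) and 5310 (mt-Nd1), with the order turned in the quercetin group. mt-Nd2 and mt-Nd4 shared the next places in each tissue, and in white fat their means of 1620 and 1670 CPM per kb differed by less than their SDs of 453 and 516. mt-Nd4l and mt-Atp8 were the lowest of the 15 mRNAs and rRNAs in all 3 tissues. mt-Nd3 was next, and in white fat its mean of 168 CPM per kb lay within the SD of that of mt-Rnr2, 169. mt-Nd4l, mt-Atp8 and mt-Nd3 are all copied genes, and mt-Nd4 and mt-Co1 lie partly in the copied stretch. Whether reads lost or placed on the copies changed this order was not tested.

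Nuclear genes for the same complexes were higher in the same tissues. Between brown and white fat 35 of 36 nuclear subunits of complex I, 9 of 9 of complex III, 14 of 14 of complex IV and 14 of 15 of ATP synthase passed higher, and none passed lower, with median log2 fold changes of 2.76, 3.13, 3.03 and 2.32. Between muscle and white fat 35, 9, 12 and 15 passed higher and 2 of complex IV lower, with medians of 1.99, 2.13, 2.02 and 2.12. Between brown fat and muscle 12 of 36, 9 of 9, 8 of 14 and 3 of 15 passed higher, and 1 of complex IV and 2 of ATP synthase lower. Of all 16388 genes tested, 18.3%, 21.7% and 13.9% were called higher in these 3 comparisons in turn, and 3613, 4689 and 2176 genes lower. The difference between the copied genes and these nuclear partners was not tested.

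Between brown and white fat 8 of 16 genes of mitochondrial DNA transcription and replication passed higher and none lower, with a median log2 fold change of 0.77. Between muscle and white fat 5 passed higher and 2 lower, with a median of 0.46. Between brown fat and muscle 1 passed higher and none lower, with a median of 0.18. The shares of all 16388 genes called higher were 18.3%, 21.7% and 13.9% in the same order, and 3613, 4689 and 2176 genes were called lower. Tfam, which packages and activates mitochondrial DNA, had 47.8 ± 8.62 CPM (SD, n = 6) in brown fat, 46.7 ± 6.14 CPM in muscle and 35.7 ± 15.8 CPM in white fat, and missed the threshold against white fat in both tissues (log2 0.42 ± 0.28, edgeR adjusted p = 0.244, and 0.39 ± 0.28, edgeR adjusted p = 0.257). Polrmt passed in brown fat (0.64 ± 0.20, edgeR adjusted p = 0.0209), though not without white fat quercetin 3 (adjusted p = 0.0541) or brown fat quercetin 2 (adjusted p = 0.053), nor without the filter, on 1 flow cell or with vehicle libraries only, and not in muscle (0.40 ± 0.20, edgeR adjusted p = 0.11), where it passed without white fat quercetin 1 (0.55, adjusted p = 0.041). With library totals as the scale, Polrmt in brown fat lost the call (0.011) and the estimates of Tfam in both tissues and of Polrmt in muscle changed sign.

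Of the genes of mitochondrial RNA processing and stability, 18 of 20 tested passed higher in brown than in white fat, 9 of 20 in muscle than in white fat and 7 of 20 in brown fat than in muscle, and none passed lower, with medians of 1.22, 0.67 and 0.58. Lrpprc, which stabilises mitochondrial mRNAs, had 161 ± 46.3 CPM (SD, n = 6) in brown fat, 95.8 ± 18.2 CPM in muscle and 36.7 ± 10.1 CPM in white fat. It was higher by 2.14 ± 0.28 and 1.38 ± 0.27 on the log2 scale. Slirp, its partner, was below the filter in these files, with at most 0.372 CPM in any library. Of the 6 regulators of biogenesis, 4 passed higher in brown than in white fat and 2 in muscle than in white fat. Between brown fat and muscle 1 regulator passed higher, and none passed lower in any comparison. For both lists the shares of all genes called higher were 18.3%, 21.7% and 13.9% in the same order. Ppargc1a, a coactivator of mitochondrial genes, was higher than in white fat by 4.12 ± 0.58 in brown fat and 5.06 ± 0.60 in muscle, and its partner receptor Esrra by 2.40 ± 0.40 and 1.77 ± 0.39. With vehicle libraries only, Esrra in muscle missed the threshold (1.58, edgeR adjusted p = 0.0958).

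Quercetin against vehicle was tested in each tissue by itself, with scaling factors of that tissue. No member passed in muscle, white fat or brown fat by edgeR, where 0% of all genes tested were called, and none by DESeq2, which called 0, 7 and 2 genes in all in the 3 tissues. At an unadjusted p under 0.05 edgeR gave 406, 122 and 241 genes, and 0 members in each tissue. For any one gene, exact permutation of 3 libraries against 3 has 0.1 as its smallest p. On simulated data of this size 31%, 0% and 23% of 4-fold changes were recovered in muscle, white fat and brown fat, so that changes of such size could go uncalled, in white fat above all. Of 16-fold changes, 99%, 13% and 95% were recovered in the same order.

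In muscle the 16 estimates were evenly split, 8 higher and 8 lower with quercetin, and their median was -0.03 on the log2 scale, as over all genes tested. mt-Co1 differed by 0.04 ± 0.46 (SE), and the 7 mRNAs outside the copied stretch by -0.21 to 0.10. In white fat 9 were higher and 7 lower, with a median of 0.13 against -0.01 over all genes. The 6 copied genes all had estimates above 0 there, from 0.32 to 1.30, with standard errors of 1.20 to 1.70, and white fat quercetin 2 was the highest library for each. mt-Co1 differed by -0.11 ± 0.91. In brown fat 6 were higher and 10 lower, with a median of -0.09 against 0.05, and the 7 mRNAs outside the copied stretch had estimates of -0.84 to -0.02. mt-Co1 had 60804 ± 13698 CPM (SD, n = 3) with vehicle and 60436 ± 21377 CPM with quercetin in brown fat, and its fitted difference was -0.02 ± 0.55.

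The libraries of the groups did not overlap for 2 of the 48 comparisons of a member in a tissue. mt-Nd6 in brown fat had 2481, 1666 and 1588 CPM with vehicle and 1481, 1392 and 1179 CPM with quercetin. Every quercetin library lay below every vehicle library, with a log2 fold change of -0.50 ± 0.35 (SE) and an edgeR adjusted p of 0.977. mt-Rnr2 in white fat was separated on the scale of the white fat fit, with -0.63 ± 0.37 and an edgeR adjusted p of 0.9998. On the scale of all 18 libraries its levels were 252, 455 and 268 CPM with vehicle and 256, 210 and 163 CPM with quercetin, which overlap. Of all genes tested, 6.23% were separated in brown fat and 4.6% in white fat, so 1 of 16 members in each is near the background, and in muscle none was, against 9.25% of all genes.

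**Figure D5:**
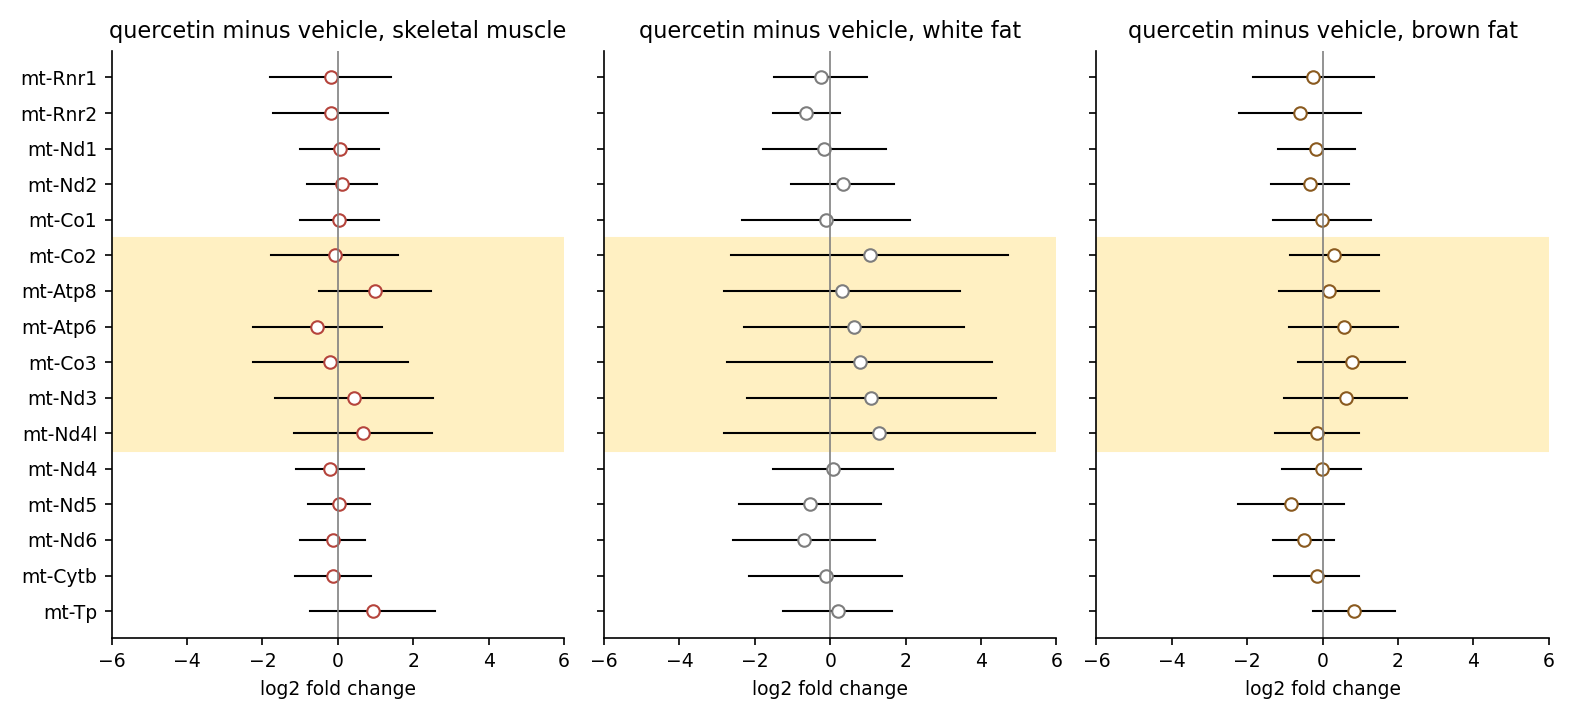
Log2 fold change of quercetin minus vehicle (x axis) of the 16 genes in each tissue, with 95% intervals derived from edgeR's F test. Open points did not pass an adjusted p of 0.05, and shading marks the copied genes. All intervals cross 0, and those of the copied genes in white fat are the widest.

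The nuclear partners gave no call either: 0 of 36, 0 of 9, 0 of 14 and 0 of 15 subunits in each tissue. In brown fat all 36, 9, 14 and 15 had estimates above 0, with medians of 0.35, 0.24, 0.28 and 0.37. The mitochondrial mRNAs outside the copied stretch all had estimates below 0. Of all 13274 genes tested there, 7286 had estimates above 0 and 5988 below, with a median of 0.05. The complex I genes summed to 23366, 14602 and 13539 CPM in brown fat quercetin 1, 2 and 3, against 8741 to 16400 CPM with vehicle. A difference between nuclear and mitochondrial genes in their response to quercetin was not tested. Brown fat quercetin 3, with its muscle transcripts, is 1 of the 3 quercetin libraries there. Without it, 36 of 36, 9 of 9, 13 of 14 and 13 of 15 nuclear subunits had estimates above 0, with medians of 0.45, 0.44, 0.39 and 0.38, and 5 of the 7 mRNAs had estimates below 0. The exceptions were mt-Co1 at 0.23 and mt-Nd4 at 0.042. In the test of a difference of the quercetin effect between tissues 0 of 16 passed in each of the 3 contrasts, where 0% of all 16388 genes were called, and the estimates of the 16 ran from -1.47 to 0.59 for brown minus white fat, -0.90 to 1.02 for brown fat minus muscle and -1.13 to 0.72 for muscle minus white fat.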

How the data were processed

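Per the labels, TRIzol was used to extract total RNA and a NEBNext Ultra kit to prepare the libraries. The authors deposited 1 table of raw counts per gene for each of the 18 libraries; the tools named are HISAT2, HTSeq and DESeq2 and the build mm10, per the submitters' processing notes, while versions, annotation release and strand setting were not given in the sources used here. Symbols, coordinates and transcript sequences came from GENCODE for GRCm38, with symbols for 53274 of 53465 identifiers. Nuclear copies were annotated genes aligned to members with blastn 2.17.0 at 90% identity or more over at least 50% of the gene.

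Counts were tested with edgeR 4.0.16 in R 4.3.3 (filterByExpr with a minimum count of 10 and total of 15, TMM, glmQLFit, two-sided quasi-likelihood F test, Benjamini-Hochberg over all genes tested, threshold 0.05). Quercetin was tested within each tissue's 6 libraries, and tissues and interactions in one fit of all 18. Levels are CPM from the TMM factors of all 18 libraries. Standard errors were derived as the absolute log2 fold change over the square root of the F statistic, and 95% intervals from these with the t distribution. They thus restate the F test. Alternatives were DESeq2 1.42.0, other scalings, no filter, 1 flow cell, vehicle libraries only, a replicate block and leaving out each library. Simulated counts with known changes were also tested. Of 4-fold changes between tissues, 45%, 65% and 53% were recovered for brown minus white fat, brown fat minus muscle and muscle minus white fat. These simulations held 15769, 14555 and 15939 genes, while the fit of all 18 libraries tested 16388. Their rates may therefore differ from those of that fit.

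The members, gene lists and tests were chosen with earlier results of these data known. All members are described; of the listed nuclear genes, the rule took the 3 smallest p-values per list and comparison and 6 regulators, of which only the regulators are named, a limit set after values were seen.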

Additional observations from a re-analysis of the deposited data

How the results depend on the processing

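The 9 members called in each comparison with white fat kept their direction in every setting run, and 9 to 11 passed in all settings except vehicle libraries only, where 3 passed for brown minus white fat and 1 for muscle minus white fat, with 3 libraries a tissue and 1442 and 3091 genes called in all against 6604 and 8251. Leaving out each library gave 9 to 10 and 9 to 11, the higher numbers without white fat vehicle 3. For brown fat minus muscle, 2 in the report became 4 with DESeq2, 1 with RLE size factors, 1 without the filter, 0 with vehicle libraries only (871 genes in all against 4461), and 0 to 2 without single libraries; without brown fat quercetin 3, muscle quercetin 2 and white fat vehicle 2, chosen after seeing the data for their markers, it was 1, though other libraries hold such transcripts too. For brown fat minus muscle on 1 flow cell, mt-Rnr1 missed the threshold (1.57, edgeR adjusted p = 0.0762), while mt-Tp passed. Of these tissues the setting removes only muscle quercetin 3. The causes were not tested. For quercetin edgeR called 32 genes in muscle without the filter and 1 in brown fat without quercetin 3, with 0 members in each.

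Signs turned for estimates that had not passed, and for no estimate past the threshold. With library totals, brown minus white fat was -0.074 for mt-Co2 and -0.22 for Tfam, muscle minus white fat -0.29 for mt-Co2, -0.56 for mt-Tp, -0.27 for Tfam and -0.23 for Polrmt, and quercetin in white fat 0.070 for mt-Co1. On 1 flow cell, mt-Tp was -0.23 for muscle minus white fat, and quercetin gave -0.23 for mt-Co1 in muscle and 0.28 for mt-Co1 and 0.096 for mt-Nd6 in white fat. In muscle, that quercetin fit is the same as the one without muscle quercetin 3. All brown fat libraries share that flow cell, so quercetin there has no such setting. With vehicle libraries only, mt-Tp was -0.28 for muscle minus white fat and mt-Co2 -0.055 for brown fat minus muscle. Without those 3 libraries, mt-Co2 was -0.38 for muscle minus white fat. Without single libraries, the quercetin estimate of mt-Co1 ran from -0.23 to 0.33 (muscle), -0.41 to 0.25 (white fat) and -0.19 to 0.23 (brown fat), that of mt-Rnr2 from -0.56 to 0.80 in muscle and -0.996 to 0.44 in brown fat, and that of mt-Nd6 from -0.49 to 0.031 in muscle and -1.15 to 0.40 in white fat. In the same settings mt-Co2 ran from -0.11 to 0.69 for brown fat minus muscle and -0.11 to 1.70 for muscle minus white fat, and mt-Tp from -0.52 to 0.32 for muscle minus white fat.

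The labels do not say whether libraries with the same replicate number share an animal. Libraries with the same number correlated at -0.70 to 0.27 between arms. Between tissues, those with the same label correlated at -0.14 to 0.30, and 12 of 18 pairs were best with their own label. Among vehicle libraries every such pair was, except brown and white fat vehicle 2, and fewer were among quercetin libraries. How many would be so by chance was not computed, and whether tissues share animals was not tested. With the replicate block 9, 9 and 2 members passed between tissues and 0 in each quercetin and interaction test, as without it; mt-Tp turned to -0.099 for muscle minus white fat and mt-Co1 to 0.00082 for quercetin in white fat.

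With reads outside genes and ambiguous reads in the denominator, the share was 3.22% in white fat quercetin and 14.7% in brown fat vehicle. Each was over 1 SD below the main share. Other denominators and additions moved no group by 1 SD. Without single libraries the group shares ran from 8.08 to 10.6% and 8.90 to 10.8% in muscle, 3.02 to 4.19% and 3.58 to 3.90% in white fat, and 15.9 to 17.3% and 12.8 to 15.5% in brown fat, vehicle first. Counts near 0 limit mt-Nd4l, mt-Atp8 and the tRNAs.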
